A study of Mus musculus with 10 samples.

Results

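The proteasome genes were read in RNA from mouse bone marrow, to compare mice on regular water with mice whose drinking water held 1% α-KG (α-ketoglutarate, a metabolite of the citric acid cycle). They were taken by symbol, as every gene named Psma, Psmb, Psmc, Psmd, Psme, Psmf or Psmg followed by a number. This gave 48 of the 55367 genes in the table, and Psmb8, Psmb9 and Psmb10 were read apart as the immunoproteasome. A filter on low counts kept 46 of the 48, so these 46 were tested, among 15126 genes tested in all. By its title, the series is about platelets and inflammation in myeloproliferative neoplasms, in which the marrow makes too many myeloid cells. All libraries came from bone marrow, with BMMC as the labelled cell type, and the 2 groups of 5 libraries are called water 1 to 5 and α-KG 1 to 5, where a shared number pairs nothing. Genotype, strain, sex, age and the length of the treatment were not given in the sources used here. No label says whether libraries and animals correspond one to one, and p-values therefore measure only the spread among these libraries.

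The proteasome is the cell's main machine for breaking down proteins that carry a ubiquitin tag. Its core, the 20S particle, is a barrel with outer rings of alpha subunits (Psma genes), which gate the entrance, and inner rings of beta subunits (Psmb genes), some of which cut the substrate. Caps bind the ends of the barrel. The 19S cap unfolds substrates with its ATPases (Psmc genes) and recognises ubiquitin with its other subunits (Psmd genes), while PA28 and PA200 (Psme genes) are activators of another kind. In blood cells, and in most cells exposed to interferon gamma, the cutting subunits Psmb5, Psmb6 and Psmb7 can be replaced during assembly by Psmb8, Psmb9 and Psmb10. The resulting immunoproteasome changes which peptides are cut and presented on MHC class I, and it is known for its abundance in white blood cells.

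Levels are given in CPM, counts scaled to a library of 1e+06 counts with the TMM method, and fold changes are log2 values of α-KG against water with their standard error (SE). A gene is said to have risen or fallen only when its p from the quasi-likelihood test of edgeR, adjusted by the Benjamini-Hochberg method over all 15126 genes, was under 0.05. With all libraries, 4205 of the 15126 genes had an unadjusted edgeR p under 0.05, 2471 higher and 1734 lower. Counts of genes at an unadjusted p under 0.05 are to be read beside these. Library totals ran from 14291364 to 22490118 counts, of which 0.102% to 0.243% belonged to proteasome genes. The TMM factors ran from 0.737 in α-KG 4 to 1.441 in water 1. Ranks of libraries and overlaps of groups in CPM are on this scale, and some differ without it. The marrow held markers of several blood lineages in every library: 8 erythroid markers summed to between 1634 and 12042 CPM and 8 neutrophil markers to between 3106 and 6358 CPM. On the TMM scale, 1 library of each group stood apart for the proteasome genes. Among the 43 tested members outside the immunoproteasome, α-KG 1 was the lowest of all 10 libraries for 32, and water 3 was the lowest of the water libraries for 35. Their TMM factors were 1.36 and 1.314. The share of unscaled counts in proteasome genes gave another order: 0.102% in α-KG 4 and 0.122% in α-KG 1, and 0.132% in water 5 and 0.161% in water 3. α-KG 1 also held the lowest mean of the erythroid markers, 6.09 on the log2(CPM + 1) scale against 7.89 to 9.33 in the other 9 libraries. Fewer cells of a type and less RNA per cell cannot be told apart in bulk libraries such as these.

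The cutting subunits that the immunoproteasome brings in were higher with α-KG, and those they replace were not. Psmb10 and Psmb8 rose, Psmb9 was higher without passing the test, and the log2 fold changes of Psmb5, Psmb6 and Psmb7 lay between -0.18 and 0.00. The promoters of the 3 immunoproteasome genes, with that of Psmb5 for contrast, are shown because Psmb10 and Psmb8 rose and Psmb9 is of the same group, while Psmb5 had a log2 fold change of 0.00. Each is the 250 bases before the start site of RefSeq on build GRCm38.p6, 5′ to 3′ on the gene's own strand, and capitals mark matches to the motifs described after them. Psmb10 lies on the minus strand (chr8:105938393-105938642), Psmb8 on the plus strand (chr17:34197945-34198194), Psmb9 on the minus strand (chr17:34187331-34187580) and Psmb5 on the minus strand (chr14:54617996-54618245).
Psmb10: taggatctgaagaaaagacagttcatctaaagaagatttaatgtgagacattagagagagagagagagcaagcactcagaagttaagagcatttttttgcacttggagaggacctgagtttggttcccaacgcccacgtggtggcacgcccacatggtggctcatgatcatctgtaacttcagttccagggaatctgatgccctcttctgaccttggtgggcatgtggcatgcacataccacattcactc
Psmb8: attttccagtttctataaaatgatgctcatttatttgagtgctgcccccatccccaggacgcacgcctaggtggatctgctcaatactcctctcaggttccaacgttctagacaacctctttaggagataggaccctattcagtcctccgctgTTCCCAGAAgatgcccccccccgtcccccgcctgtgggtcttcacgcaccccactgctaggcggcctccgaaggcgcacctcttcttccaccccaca
Psmb9: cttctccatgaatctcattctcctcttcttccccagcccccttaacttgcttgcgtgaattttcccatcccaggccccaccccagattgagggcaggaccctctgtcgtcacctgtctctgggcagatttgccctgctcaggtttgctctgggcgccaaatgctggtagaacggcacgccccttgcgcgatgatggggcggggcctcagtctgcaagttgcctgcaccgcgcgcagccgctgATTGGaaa
Psmb5: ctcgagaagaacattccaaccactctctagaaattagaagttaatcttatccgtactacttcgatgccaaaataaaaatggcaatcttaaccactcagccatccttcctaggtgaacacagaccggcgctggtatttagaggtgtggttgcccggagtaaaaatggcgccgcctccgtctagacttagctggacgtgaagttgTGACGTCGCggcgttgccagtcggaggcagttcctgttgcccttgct

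A set of 4 short motifs was searched on both strands in windows of 300 bases, from 250 before to 50 after the start, for the 40 of 48 members with an entry in the promoter table. TTCNNNGAA is the core of the GAS element, found at genes that respond to interferon gamma, and GAAA, any 2 bases, GAAA again is the core of the ISRE, bound by interferon regulatory factors. TGACNNNGC is the core of the antioxidant response element (ARE), bound by the Nfe2l factors that control proteasome genes, and CCAAT is the CCAAT box. Among the printed stretches, the Psmb8 promoter held a GAS match whose first base lay 97 before the start. The Psmb5 promoter held an ARE match 47 before its start, and the Psmb9 promoter held a CCAAT box, on the opposite strand, 8 before its start. The Psmb10 window held none of the 4, which says only that these letters are not in this window. RefSeq and GENCODE starts differ for some genes. The windows of Psmb8, Psmb9, Psmb11, Psmd5, Psmd9, Psmd13, Psme1 and Psmf1 lie wholly inside the bounds that GENCODE M21 gives these genes. So does a second window of Psma6 and of Psmc2.

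The share of the 40 members with a match was set beside that of all 27025 genes of the table, where a gene counts if any of its windows holds the motif. GAS matches were in 3 members (7.5%; Psmb8, Psmd2 and Psmg1) and in 9.55% of all genes, and the CCAAT box was in 14 members (35%) and in 41.1% of all genes. ARE matches were in 6 members (15%; Psmb5, Psmb6, Psmc6, Psmd9, Psmd12 and Psme4), against 14% of all genes. The ISRE core was in 5 members (12.5%; Psmb3, Psmd4, Psmd9, Psme1 and Psmg4), none of them an immunoproteasome gene, against 3.99% of all genes. The 6 members with an ARE match had log2 fold changes from -0.58 for Psmd9 to 0.00 for Psmb5, and the 5 with an ISRE core had values from -0.58 for Psmd9 to 0.77 for Psmg4. A match is a description of the sequence and was not tested for binding.

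Psmb10 (chromosome 8, 105935735 to 105938444, minus strand, build GRCm38; ENSMUSG00000031897.9) takes the place of Psmb7 and has a trypsin-like activity. Its levels in the water libraries were 7.82, 7.55, 7.78, 8.67 and 6.58 CPM, and in the α-KG libraries they were 14.8, 9.97, 11.9, 11.3 and 15.4 CPM. On the TMM scale every α-KG library was above every water library. That separation rested on the scaling: the unscaled counts were 119 of 14291364 in α-KG 4 and 253 of 22490118 in water 1, a larger share in water 1. The mean went from 7.68 ± 0.75 to 12.7 ± 2.34 CPM (SD, n = 5 each), and the gene rose with a log2 fold change of 0.72 ± 0.14 (SE; edgeR, adjusted p = 0.0278). Its exons overlap those of no other gene in the annotation used.

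Psmb8 (chromosome 17, 34197721 to 34201454, plus strand; ENSMUSG00000024338.15) takes the place of Psmb5 and has a chymotrypsin-like activity. It stood at 15.7, 14.5, 18.7, 14.7 and 11.9 CPM in water and at 26.2, 17.4, 22.9, 27.1 and 23.9 CPM in α-KG. The groups overlapped at 1 point, since water 3 lay above α-KG 2. From a mean of 15.1 ± 2.42 to 23.5 ± 3.81 CPM (SD, n = 5 each), Psmb8 rose by a log2 fold change of 0.63 ± 0.15 (SE; edgeR, adjusted p = 0.0445). Its exons overlap 498 bases of Gm20496 on the opposite strand, and because the strand setting of the counting was not given in the sources used here, reads from there cannot be assigned with certainty.

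Psmb9 (chromosome 17, 34181987 to 34187764, minus strand; ENSMUSG00000096727.3) lies near Psmb8 in the MHC region, with Tap1 between them, and takes the place of Psmb6. In water it was at 9.21, 8.84, 13.5, 9.38 and 8.15 CPM, and in α-KG at 15.7, 10.96, 13.3, 13.7 and 14.3 CPM. Water 3 stood above the other water libraries and above 2 of the α-KG libraries, so the groups overlapped. The log2 fold change was 0.46 ± 0.15 (SE), and it did not pass the test (edgeR, adjusted p = 0.0944). Psmb9 starts head to head with Tap1, a transporter of peptides for MHC class I, on the other strand: their exons overlap by 212 bases and their promoter windows share 275 bases. Tap1 was at 39.8, 40.1, 51.6, 48.2 and 38.0 CPM in water and at 60.5, 42.3, 45.8, 55.7 and 68.4 CPM in α-KG, with a log2 fold change of 0.32 ± 0.15 (SE) that did not pass (edgeR, adjusted p = 0.184).

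The calls of Psmb8 and Psmb10 rested on all but 2 of the libraries. With water 1, 2, 4 or 5 or α-KG 1, 3, 4 or 5 left out, neither passed the edgeR test, with adjusted p from 0.0674 to 0.137 for Psmb8 and from 0.0545 to 0.0991 for Psmb10. Their log2 fold changes there were 0.56 to 0.64 and 0.64 to 0.76. In the same fits 0 to 149 genes of the whole table passed, against 413 with all libraries, and unadjusted p was under 0.05 for all 3 immunoproteasome genes in each. All 3 passed without water 3 or without α-KG 2. DESeq2 called Psmb8 and Psmb10 with all libraries (adjusted p = 0.0110 and 0.00208), and limma voom called Psmb10 (adjusted p = 0.0428) but not Psmb8 (adjusted p = 0.0575).

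**Figure D1:**
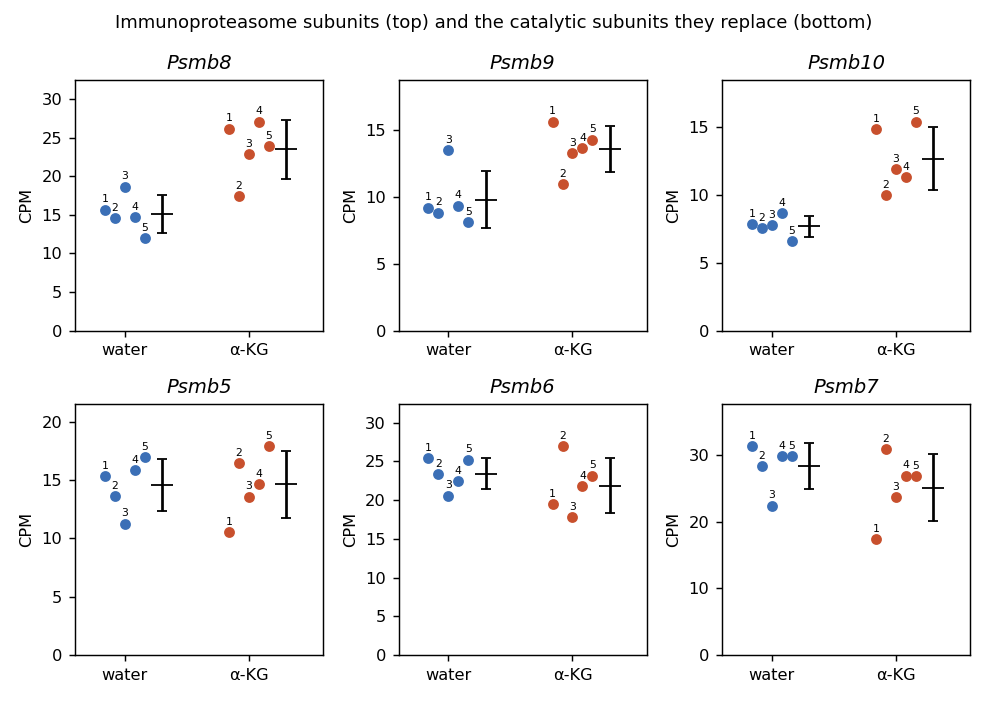
Level in CPM of each immunoproteasome gene (top) and of the catalytic subunit gene it can replace (bottom) in the 5 water and 5 α-KG libraries; points are libraries with their number, and bars are the mean and SD. All α-KG points of Psmb10 sit above all water points, water 3 is the high water point of Psmb8 and Psmb9, and the groups of Psmb5, Psmb6 and Psmb7 lie over each other.

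The constitutive cutting subunits showed no such difference. Psmb5, the chymotrypsin-like subunit and the target of the drug bortezomib, was at 15.3, 13.6, 11.3, 15.8 and 16.9 CPM in water and at 10.5, 16.4, 13.6, 14.6 and 17.9 CPM in α-KG. Both groups spanned nearly the same range, and the log2 fold change was 0.00 ± 0.16 (SE; edgeR, adjusted p = 0.998). Psmb6, the caspase-like subunit, was at 25.4, 23.4, 20.6, 22.5 and 25.2 CPM in water and at 19.5, 27.0, 17.8, 21.9 and 23.2 CPM in α-KG. The highest and the lowest of its 10 values were both α-KG libraries, and the log2 fold change was -0.10 ± 0.13 (SE; edgeR, adjusted p = 0.618). Psmb7, the trypsin-like subunit, was at 31.3, 28.3, 22.4, 29.8 and 29.8 CPM in water and at 17.4, 30.8, 23.7, 26.9 and 26.8 CPM in α-KG. Here α-KG 1 was lowest and water 3 next, and the log2 fold change was -0.18 ± 0.15 (SE; edgeR, adjusted p = 0.455). The exons of Psmb7 overlap 405 bases of Nek6 on the opposite strand, so reads from there cannot be assigned with certainty.

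Per length, each constitutive subunit had a higher mean than its counterpart in both groups. On the scale of CPM per kilobase of the principal transcript, Psmb5, Psmb6 and Psmb7 had water means of 16.2 ± 2.47, 29.3 ± 2.54 and 24.4 ± 3.01 (SD, n = 5 libraries). Psmb8, Psmb9 and Psmb10 had 9.28 ± 1.49, 7.26 ± 1.56 and 5.86 ± 0.572. In α-KG the levels of Psmb8, Psmb9 and Psmb10 were 14.4 ± 2.34, 10.05 ± 1.27 and 9.67 ± 1.78, so that Psmb8 came within the spread of Psmb5 at 16.3 ± 3.16, while Psmb6 at 27.4 ± 4.45 and Psmb7 at 21.6 ± 4.31 stayed above their counterparts. Both RNAs of a pair can be present in different cells, so these levels do not give the makeup of single particles.

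The ratio of each pair was taken within a library, where the scaling between libraries cancels. The log2 ratio of Psmb10 to Psmb7 counts was -2.003, -1.91, -1.52, -1.78 and -2.18 in water and -0.23, -1.63, -0.997, -1.25 and -0.80 in α-KG. Only α-KG 2 fell below a water library, water 3. The ratio was higher in α-KG by 0.90 on the log2 scale (exact two-sided permutation test over all assignments of 5 and 5 libraries, p = 0.0159, adjusted p = 0.0476 over the 3 ratios). Without water 1, 2, 4 or 5 or without α-KG 1 the adjusted p of the exact permutation test was 0.0714 to 0.0952, with differences of 0.71 to 0.92.

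For Psmb8 to Psmb5 the log2 ratio was 0.03, 0.10, 0.73, -0.11 and -0.50 in water and 1.32, 0.08, 0.76, 0.88 and 0.42 in α-KG. Water 3 lay among the α-KG values and α-KG 2 among the water values. The difference of 0.64 did not pass (exact permutation p = 0.0556, adjusted p = 0.0556). For Psmb9 to Psmb6 the values were -1.47, -1.40, -0.61, -1.26 and -1.63 in water and -0.32, -1.30, -0.42, -0.68 and -0.69 in α-KG, with the same 2 libraries out of place. That difference was 0.59 (exact permutation p = 0.0556, adjusted p = 0.0556). Both passed when water 3 was left out, at 0.81 and 0.76 (adjusted p = 0.0238 for each, exact permutation test), or when α-KG 2 was, at 0.80 and 0.75 (adjusted p = 0.0317 for each). These are the 2 libraries out of place in the same ratios, so leaving either out had to widen the difference. With some other libraries left out the differences were smaller than with all libraries. The smallest p that this design allows is 0.00794.

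**Figure D2:**
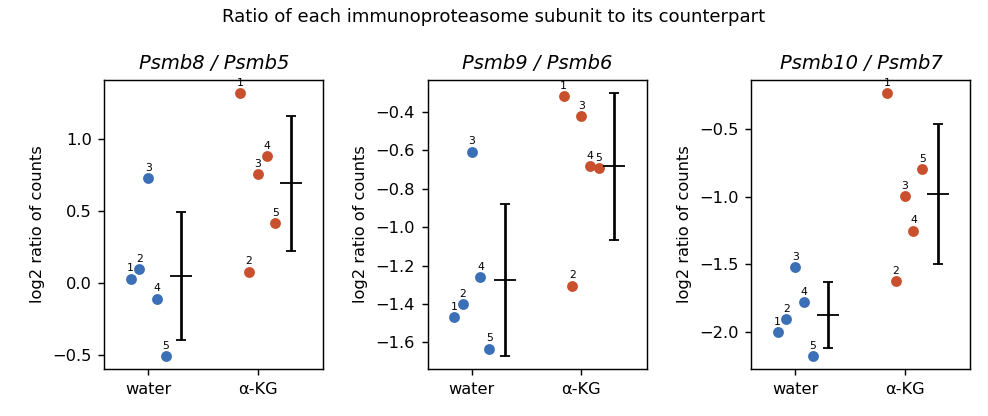
Log2 ratio of counts of each immunoproteasome gene to its constitutive counterpart in the 5 water and 5 α-KG libraries; points are libraries with their number, and bars are the mean and SD. In all 3 panels water 3 is the highest water point and α-KG 2 is the lowest α-KG point, and α-KG 1 is the highest of all.

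The immunoproteasome is abundant in cells of the immune system, so marker genes of such cells were read beside these genes. Of 10 monocyte markers 8 rose, with a median log2 fold change of 1.11 over the 10, and their summed level was 679 to 864 CPM in water and 901 to 1613 CPM in α-KG. Of 10 macrophage markers 4 rose, with sums of 48.1 to 94.2 CPM in water and 99.7 to 176 CPM in α-KG. Of 10 T and NK cell markers 2 rose, with sums of 19.8 to 29.2 CPM and 23.6 to 67.0 CPM. No gene of these 3 lists was at 0 in a whole group. The other immune lists held 0 called genes with edgeR and DESeq2, and 0 at an unadjusted p under 0.05 with edgeR. Of 8 neutrophil markers 4 were above 0, with a median log2 fold change of 0.01, and of 4 tested plasma cell markers 2 were, with a median of -0.32. Of 8 B cell markers 7 were above 0, with a median of 0.45 and sums of 102 to 178 CPM in water and 82.04 to 453 CPM in α-KG, where α-KG 1 was the highest and the other 4 were at most 171 CPM. Library by library, the 3 immunoproteasome genes summed to 32.7, 30.9, 39.9, 32.8 and 26.7 CPM in water and to 56.7, 38.3, 48.1, 52.1 and 53.6 CPM in α-KG. The mean of the monocyte markers, as log2(CPM + 1), was 4.71, 4.96, 5.21, 4.85 and 4.80 in water and 5.70, 5.23, 6.0, 6.26 and 6.09 in α-KG. Water 3 was the highest water library and α-KG 2 the lowest α-KG library on both measures. The libraries were not in one order otherwise: α-KG 1, highest for the immunoproteasome genes, was the second lowest α-KG library for the monocyte markers. The part of these cell types in the higher immunoproteasome RNA was not tested.

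The rest of the proteasome showed small differences that mostly pointed downward under each of the 4 scalings tried. Of the 46 members tested, 2 rose and 0 fell, where 2.39% of all genes tested rose and 0.344% fell, so the count over the family was close to the background and came from the immunoproteasome alone. The median log2 fold change of the 46 was -0.22, against 0.02 over all genes tested, and 36 of 46 (78.3%) were below 0, against 48.3% of all genes. That median was about the size of the spread between libraries, since the members' mean log2 CPM had an SD of 0.213 within groups. Members were read in the same libraries, so their counts below 0 are not separate observations. Among the 43 members outside the immunoproteasome edgeR called 0, with 6 at an unadjusted p under 0.05, 1 higher and 5 lower. Over all 15126 genes tested, 4205 were at such a p, 2471 higher and 1734 lower. For these 43, DESeq2 called 2 lower (Psma3 and Psmd9), limma voom called 0 and limma voom with library weights called Psma3, Psmd1 and Psmd9 lower and Psmg4 higher. On the TMM scale the 2 groups of 5 libraries did not overlap for 2 members, Psmb10 and Psmg4, both higher in α-KG, and for 0 that were lower. Over all genes tested these shares were 3.64% and 2.01%. Without α-KG 1 the members' median was -0.14 with 34 of 46 below 0, and without both α-KG 1 and water 3 it was -0.21 with 35 of 46 below 0.

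**Figure D3:**
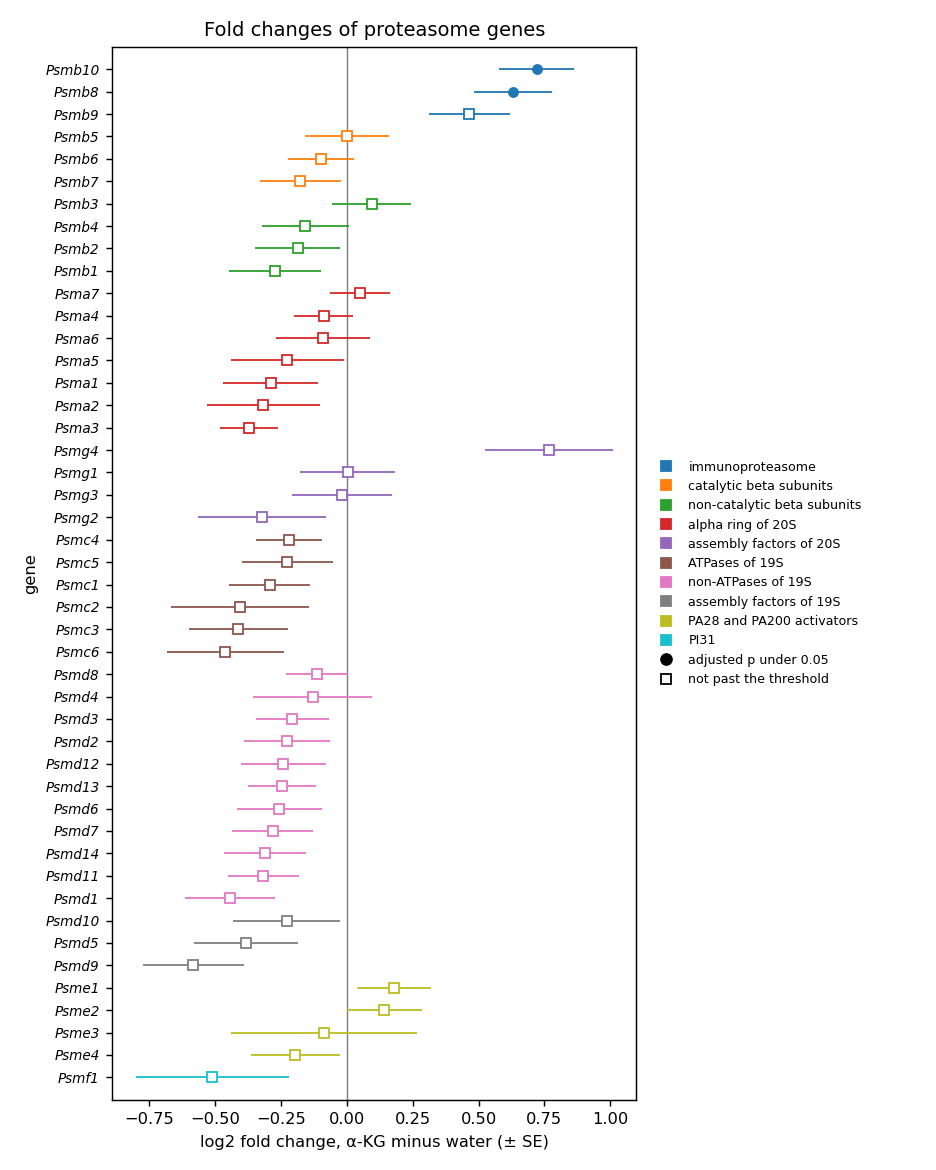
Log2 fold change of α-KG against water for the 46 tested proteasome genes, grouped and coloured by their role, with bars of 1 SE; filled circles passed the edgeR test at an adjusted p of 0.05 and open squares did not. Psmb10 and Psmb8 are the only filled points, and all 17 genes of the 19S ATPases and non-ATPases lie left of 0, as they did under the other 3 scalings.

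The alpha subunits form the outer rings of the core, and 6 of the 7 tested were below 0, with a median of -0.23 and none called. Psma3 had the lowest value of the 7 and the smallest p among the members outside the immunoproteasome. It was at 17.9, 15.6, 14.5, 16.2 and 16.4 CPM in water and at 11.6, 14.5, 11.2, 12.3 and 12.7 CPM in α-KG. Apart from α-KG 2, which was level with water 3, each α-KG library lay below the water libraries. The log2 fold change of -0.37 ± 0.11 (SE) did not pass with edgeR (adjusted p = 0.0755) and passed with DESeq2, at -0.40 (adjusted p = 0.0255). Psma7 was the only alpha subunit above 0, at 28.3, 23.7, 24.2, 26.7 and 26.7 CPM in water and 22.3, 28.1, 24.3, 29.3 and 30.5 CPM in α-KG, with a log2 fold change of 0.05 ± 0.11 (SE; edgeR, adjusted p = 0.794). The other 5, Psma1, Psma2, Psma4, Psma5 and Psma6, ran from -0.32 to -0.09.

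The beta subunits without cutting activity, Psmb1 to Psmb4, behaved alike in size: none passed, and they ran from -0.27 for Psmb1 to 0.09 for Psmb3. Psmb1 was at 35.3, 33.5, 24.7, 33.4 and 34.7 CPM in water and at 17.8, 29.9, 23.3, 27.1 and 35.8 CPM in α-KG. Its highest and lowest libraries were both α-KG, and water 3 stood below the other water libraries (log2 fold change -0.27 ± 0.17 SE; edgeR, adjusted p = 0.310). Psmb3 was at 13.5, 9.98, 10.98, 12.4 and 14.1 CPM in water and at 10.5, 12.8, 13.6, 16.9 and 11.4 CPM in α-KG, and the groups overlapped widely (0.09 ± 0.15 SE; edgeR, adjusted p = 0.697). Over the 14 tested core subunits outside the immunoproteasome the median log2 fold change was -0.17, with 11 below 0.

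Members specific to other tissues were almost absent. Psma8, an alpha subunit of the testis, had counts of 11, 11, 3, 1 and 4 in water and 4, 4, 5, 11 and 1 in α-KG. Psmb11, the cutting subunit of the thymoproteasome in cortical thymic epithelium, had 14, 4, 1, 4 and 0 counts in water and 0, 2, 0, 0 and 0 in α-KG. Neither passed the filter on low counts, so neither was tested.

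The factors that build the core particle, Psmg1 to Psmg4, were, with Psmd10, the scarcest tested members per length in water. In α-KG Psmd5, at 3.82 CPM per kilobase, lay below Psmg3, at 3.89. Psmg4, a partner of Psmg3 in the chaperone that guides the alpha ring, had the highest log2 fold change of all 46 members. It was at 1.24, 0.894, 0.995, 1.27 and 1.43 CPM in water and at 1.71, 1.63, 1.48, 2.76 and 2.45 CPM in α-KG. On the TMM scale all α-KG libraries lay above all water libraries, α-KG 3 only just. The value of 0.77 ± 0.24 (SE) did not pass (edgeR, adjusted p = 0.0845), and Psmg4 had the lowest level per kilobase in water, at 2.10 ± 0.391 CPM (SD, n = 5). Psmg2, a partner of Psmg1, was at 4.17, 3.03, 3.87, 3.94 and 6.93 CPM in water and at 2.68, 3.60, 2.77, 5.04 and 3.53 CPM in α-KG. Water 5 stood above the rest, and the log2 fold change was -0.32 ± 0.24 (SE; edgeR, adjusted p = 0.388). Psmg1 and Psmg3 were at 0.00 and -0.02. Pomp, which helps the beta subunits mature and lies outside the symbol rule, had a log2 fold change of 0.22 ± 0.12 (SE; edgeR, adjusted p = 0.255).

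Of the 19S cap genes taken by symbol, all 17 ATPases and non-ATPases were below 0, under each of the 4 scalings tried. edgeR and DESeq2 called 0 of them, with 3 at an unadjusted p under 0.05. The cap subunits Sem1 and Adrm1 lie outside the symbol rule. Sem1 had a log2 fold change of 0.06 ± 0.14 (SE; edgeR, adjusted p = 0.79) and Adrm1 one of -0.23 ± 0.12 (SE; edgeR, adjusted p = 0.233). The 6 ATPases, which unfold the substrate and open the gate, ran from -0.46 to -0.22 with a median of -0.35. Psmc6 had the lowest value, with 37.2, 36.7, 23.3, 32.5 and 28.9 CPM in water and 14.1, 31.2, 16.9, 22.05 and 31.2 CPM in α-KG. α-KG 1, 3 and 4 lay below all water libraries and the other 2 among them (log2 fold change -0.46 ± 0.22 SE; edgeR, adjusted p = 0.196). Psmc4, the least different, was at 25.04, 23.2, 18.8, 24.0 and 26.8 CPM in water and at 16.4, 22.2, 19.4, 21.3 and 21.9 CPM in α-KG (-0.22 ± 0.13 SE; edgeR, adjusted p = 0.262). Its groups overlapped only because of the low water 3.

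The 11 non-ATPases taken by symbol include ubiquitin receptors, scaffold subunits and the enzyme Psmd14, which removes ubiquitin before a substrate enters. They ran from -0.44 to -0.11, with a median of -0.25, and 2 of them, Psmd1 and Psmd11, had an unadjusted p under 0.05. Psmd1, a large scaffold subunit, was at 58.1, 54.7, 44.1, 52.6 and 59.5 CPM in water and at 26.7, 50.3, 32.9, 39.3 and 48.6 CPM in α-KG. α-KG 1, 3 and 4 lay below every water library, and the log2 fold change was -0.44 ± 0.17 (SE; edgeR, adjusted p = 0.127). Psmd8, a subunit of the lid, was at 49.9, 55.8, 49.1, 54.8 and 56.8 CPM in water and at 39.7, 51.8, 47.5, 49.8 and 57.7 CPM in α-KG, with the highest and the lowest value both in α-KG (-0.11 ± 0.12 SE; edgeR, adjusted p = 0.540). Psmd4, a ubiquitin receptor, was the most abundant 19S gene per length, with 51.7 ± 7.27 CPM per kilobase in water (SD, n = 5) and 47.2 ± 16.5 in α-KG, and Psmd14 had a log2 fold change of -0.31 ± 0.16 (SE; edgeR, adjusted p = 0.206).

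A further 3 Psmd genes, Psmd5, Psmd9 and Psmd10, encode chaperones that help assemble the cap and are no part of the finished one. Psmd9 had the lowest log2 fold change of all members. It was at 30.2, 36.1, 27.5, 39.6 and 37.2 CPM in water and at 16.3, 32.4, 16.6, 22.6 and 26.0 CPM in α-KG. All α-KG libraries but α-KG 2 lay below all water libraries. The value of -0.58 ± 0.19 (SE) did not pass with edgeR (adjusted p = 0.0920) and passed with DESeq2, at -0.61 (adjusted p = 0.0457). The annotation places 1849 bases of Gm26745 opposite its exons. Psmd10, also known as gankyrin, was at 6.74, 5.16, 4.12, 6.47 and 7.29 CPM in water and at 3.58, 6.37, 4.19, 5.80 and 5.54 CPM in α-KG, with wide overlap (-0.23 ± 0.20 SE; edgeR, adjusted p = 0.468). Psmd5 was at -0.38 ± 0.20 (SE; edgeR, adjusted p = 0.217).

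Markers of dividing and red cells were read beside the 19S genes library by library. The 6 ATPase genes summed to 211, 193, 143, 194 and 207 CPM in water and to 98.2, 182, 120, 155 and 187 CPM in α-KG. The mean of 8 markers of proliferating cells, as log2(CPM + 1), was 7.42, 7.25, 6.92, 7.36 and 7.51 in water and 5.63, 7.09, 6.04, 6.63 and 6.75 in α-KG, and that of 8 erythroid markers was 9.18, 9.33, 8.31, 9.29 and 8.99 and then 6.09, 8.96, 7.89, 8.35 and 9.04. On all 3 measures, each on the TMM scale, α-KG 1 was the lowest library and water 3 the lowest water library. All 8 proliferation markers were below 0, with a median log2 fold change of -0.81, and their sums were 2842 to 3853 CPM in water and 830 to 2904 CPM in α-KG. edgeR called 0 of them, with 8 at an unadjusted p under 0.05, and DESeq2 called 8. Of the 8 erythroid markers 7 were below 0, with sums of 5655 to 12042 CPM and 1634 to 10695 CPM, and edgeR and DESeq2 called 0, with 1 at an unadjusted p under 0.05. No gene of either list was at 0 in a whole group. The part of these cells in the lower 19S values was not tested.

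**Figure D4:**
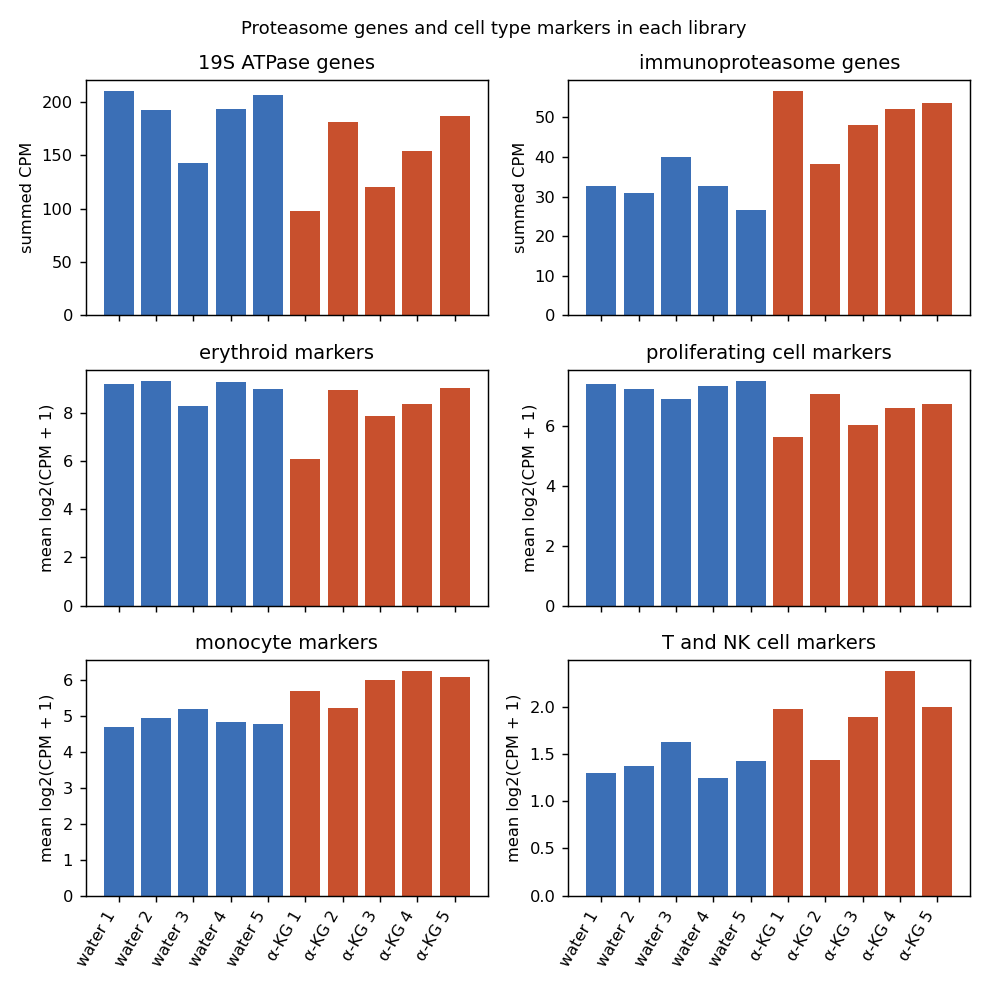
Summed CPM of the 19S ATPase genes and of the immunoproteasome genes, and the mean log2(CPM + 1) of 4 marker lists, in the 5 water libraries (blue) and the 5 α-KG libraries (red). The ATPase sum is lowest in α-KG 1, at 98.2 CPM, where the erythroid and proliferation markers are lowest too, and the immunoproteasome sum is highest there, at 56.7 CPM.

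The activators that cap the barrel in place of 19S did not pass the test. Psme1 and Psme2 encode the subunits of PA28 alpha-beta, which interferon gamma is known to induce together with the immunoproteasome. Psme1 was at 21.98, 22.6, 20.5, 23.3 and 25.8 CPM in water and at 22.2, 21.3, 23.1, 33.4 and 29.5 CPM in α-KG. α-KG 4 and 5 were above every water library and the other 3 among them (log2 fold change 0.18 ± 0.14 SE; edgeR, adjusted p = 0.403). Psme2 was at 14.7, 11.97, 15.3, 18.3 and 14.2 CPM in water and at 14.2, 15.8, 13.99, 18.6 and 19.8 CPM in α-KG, with the groups largely overlaid (0.14 ± 0.14 SE; edgeR, adjusted p = 0.522). A near copy of it, Psme2b on chromosome 11, had 3.71 to 5.44 CPM in water and 2.57 to 8.42 CPM in α-KG (0.59 ± 0.27 SE; edgeR, adjusted p = 0.173), and the counting could have split reads between the copies, so the Psme2 value is uncertain.

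Psme3, the PA28 gamma of the nucleus, was the most abundant member per length and had the largest SD in CPM. It was at 381, 527, 236, 462 and 291 CPM in water and at 116, 440, 460, 292 and 479 CPM in α-KG. The lowest library was α-KG 1, the next was water 3, and the groups overlapped throughout (log2 fold change -0.09 ± 0.35 SE; edgeR, adjusted p = 0.891). Per kilobase it stood at 142 ± 44.8 CPM in water (SD, n = 5) and 134 ± 57.7 in α-KG, with Psmd4 next. Psme4, which encodes PA200, was at 78.7, 82.5, 57.9, 84.6 and 74.8 CPM in water and at 43.9, 74.7, 61.0, 70.8 and 80.3 CPM in α-KG (-0.20 ± 0.17 SE; edgeR, adjusted p = 0.458). Psmf1, which encodes the proteasome regulator PI31, ran from 30.2 to 62.0 CPM in water and from 13.9 to 47.5 CPM in α-KG (-0.51 ± 0.29 SE; edgeR, adjusted p = 0.261). α-KG 1 was the lowest library for Psme4 and Psmf1 as well.

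**Figure D5:**
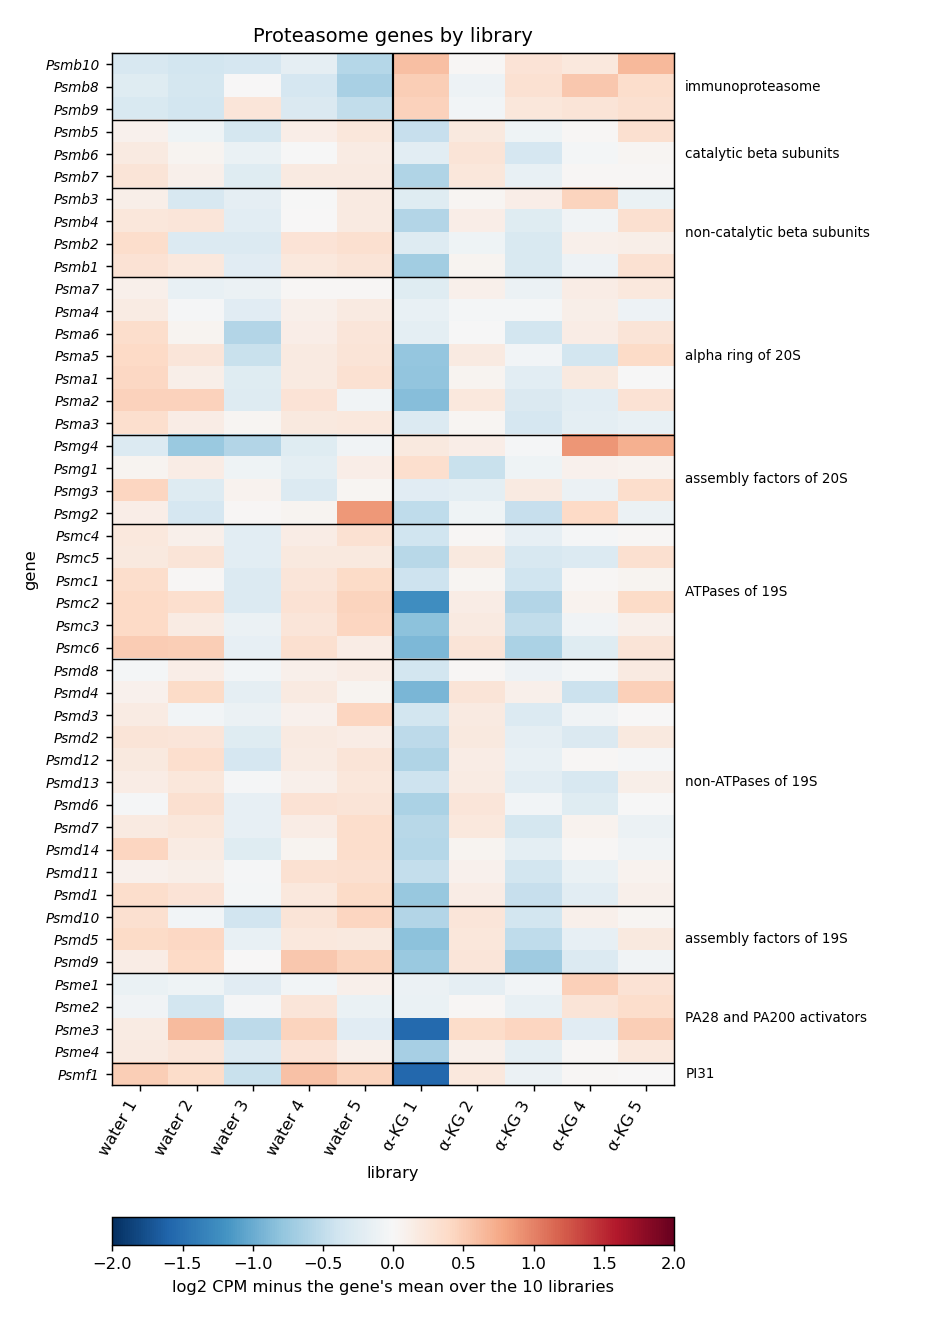
Level of the 46 tested proteasome genes in each library, as log2 CPM minus the gene's mean over the 10 libraries; red is above and blue below the mean, rows are grouped by role and the vertical line divides water from α-KG. The α-KG 1 column is blue for most genes outside the immunoproteasome, where it was the lowest of 10 libraries for 32 of 43, while the 3 immunoproteasome rows at the top are red there.

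Genes that work with the proteasome were read from written lists. Of 10 tested partners outside the symbol rule, such as shuttling and deubiquitylating enzymes, 8 were below 0 and edgeR and DESeq2 called 0, with 0 at an unadjusted p under 0.05. Usp14, which trims ubiquitin at the 19S cap, had the lowest value. It was at 52.9, 61.9, 36.2, 56.4 and 47.8 CPM in water and at 15.2, 47.9, 28.3, 32.6 and 52.8 CPM in α-KG, where α-KG 1 was lowest again (log2 fold change -0.53 ± 0.28 SE; edgeR, adjusted p = 0.234). The annotation places 2169 bases of Thoc1 opposite the exons of Usp14. Of 15 genes of ubiquitin itself and of substrate delivery, 11 were below 0 and edgeR and DESeq2 called 0, with 1 at an unadjusted p under 0.05. The highest of them was Uba6, an E1 enzyme of ubiquitin, at 0.25 ± 0.16 (SE; edgeR, adjusted p = 0.304).

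Of 14 genes listed for the transcriptional control of proteasome genes, 13 were below 0 and 1 fell with edgeR (11 to 14 below 0 over the other scalings). The list holds transcription factors and also proteins that act on such factors. Nfe2l1, the factor that raises proteasome genes when proteasome activity is short, was at 90.5, 141, 75.3, 120 and 71.6 CPM in water and at 40.4, 120, 49.4, 57.1 and 159 CPM in α-KG. Its highest and lowest values were both in α-KG (log2 fold change -0.23 ± 0.37 SE; edgeR, adjusted p = 0.700). Nfe2l3, a close relative, was the one that fell, from 7.57, 4.37, 2.77, 2.48 and 2.72 CPM in water to 1.36, 1.04, 1.77, 1.62 and 1.15 CPM in α-KG, without overlap and with water 1 highest (-1.54 ± 0.33 SE; edgeR, adjusted p = 0.0354). With any of the 8 libraries that ended the calls of Psmb8 and Psmb10 left out, its adjusted p was 0.0614 to 0.0967 and its log2 fold change -1.67 to -1.16. DESeq2 called Nfe2l3 and Nfyb, a subunit of the factor that binds CCAAT boxes, both lower, limma voom called 0 of the 14, and limma voom with library weights called Nfyb alone, also lower. Nfe2l2, the regulator of antioxidant genes, was at -0.14 ± 0.13 (SE; edgeR, adjusted p = 0.467) and Maff, a small partner of these factors, at 0.10 ± 0.18 (SE; edgeR, adjusted p = 0.716).

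Interferon gamma is the textbook inducer of the immunoproteasome, so its signalling genes were read beside it. Of 8 tested, 3 rose: both receptor chains and Nlrc5, an activator of MHC class I genes. Ifngr1 was at 32.1, 29.99, 36.98, 27.1 and 25.9 CPM in water and at 50.98, 36.2, 51.3, 56.9 and 49.3 CPM in α-KG, with water 3 above α-KG 2 (log2 fold change 0.68 ± 0.14 SE; edgeR, adjusted p = 0.0309). Ifngr2 was at 14.7, 16.1, 14.8, 15.3 and 15.4 CPM in water and at 21.4, 18.8, 22.1, 20.9 and 27.6 CPM in α-KG, without overlap (0.54 ± 0.11 SE; edgeR, adjusted p = 0.0354). Nlrc5 was at 26.03, 26.1, 39.01, 31.4 and 23.4 CPM in water and at 54.5, 35.1, 42.2, 57.1 and 48.1 CPM in α-KG, again with water 3 above α-KG 2 (0.70 ± 0.17 SE; edgeR, adjusted p = 0.0489). Each of these 3 calls also ended with any of the same 8 libraries left out, at adjusted p of 0.0571 to 0.114 for Ifngr1, 0.0582 to 0.112 for Ifngr2 and 0.0708 to 0.134 for Nlrc5. Ifng itself did not pass the filter on low counts.

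Irf1 and Jak2 did not pass. Irf1, a transcription factor induced by interferon gamma, was at 30.05, 33.5, 41.1, 34.9 and 25.3 CPM in water and at 41.7, 26.8, 35.5, 39.3 and 44.7 CPM in α-KG, and the groups overlapped (log2 fold change 0.19 ± 0.16 SE; edgeR, adjusted p = 0.448). Jak2, a kinase at the receptor, was at -0.27 ± 0.18 (SE; edgeR, adjusted p = 0.329).

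MHC class I genes, whose products present the peptides that the immunoproteasome cuts, had no call. Of 11 tested, 9 were above 0, but only 3 with library totals alone, and the list's median log2 fold change was 0.18, or 0.16 above that of all genes (0.19 above it with library totals alone). edgeR and DESeq2 called 0, and 1 gene had an unadjusted p under 0.05. Besides Tap1, Tap2 was at 0.18 ± 0.14 (SE; edgeR, adjusted p = 0.391) and B2m, the light chain of MHC class I, at 0.09 ± 0.17 (SE; edgeR, adjusted p = 0.750). Canx, a chaperone of the endoplasmic reticulum, had the lowest value, -0.24 ± 0.13 (SE; edgeR, adjusted p = 0.228).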

How the data were processed

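Per the labels' protocols, RNA of marrow cells was purified on columns with DNase, depleted of ribosomal RNA by RNase H and sequenced on an Illumina instrument. The submitters' processing notes name bcl2fastq and DRAGEN, without versions, and build GRCm38. How the strand was set, the quantifier and the annotation release were not given in the sources used here. Values are the authors' deposited estimated counts (expected counts) per gene, not scaled between libraries, and 10.3% of the values are not whole.

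Counts were rounded and filtered with filterByExpr of edgeR (minimum count 10, minimum total 15), which retained 99.8% or more of each library's counts. All genes kept were fitted together in edgeR 4.0.16 (R 4.3.3) by its quasi-likelihood F test (TMM scaling, robust, two-sided, no covariates, threshold 0.05 after Benjamini-Hochberg adjustment), and the steps were tested on simulated data. The common biological coefficient of variation was 0.254. SE was computed from the F statistic, as |log2 fold change| over its square root. CPM are counts per 1e+06 on TMM-scaled library sizes. Ratios of counts were compared by exact permutation tests over libraries. Described library by library were Psmb5 to Psmb10, Psme1, Psme2, each called member and the highest and lowest log2 fold change of each class of at least 3 tested members. Of each pathway list, called genes, both extremes and 10 fixed genes were to be named; some of these are not reported here. Psme3, Psmd4, Psmd5, Psmd11, Psmd14, Psmf1, Psmg1, Psmg3, Nfyb, Sem1 and Adrm1 fall outside that rule and were named after their values were seen. Members and lists were chosen with earlier results of these data known. Alternatives tried were RLE, upper-quartile and no scaling, other filters and other tests (DESeq2 1.42.0, limma 3.58.1 voom) and each library left out. Positions, gene identifiers and lengths of principal transcripts came from GENCODE M21 (GRCm38), and promoters from RefSeq (GRCm38.p6).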

Additional observations from a re-analysis of the deposited data

Results flagged for a closer look

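For 2 members the water 3 library stood far from the other 4 water libraries, among 84 sets of 5 libraries looked at, where chance gives about 1 in 20. Psmb9, the immunoproteasome subunit that did not pass the test, reached 13.5 CPM in water 3, against 8.15 to 9.38 CPM in the other water libraries. Psmb1, a beta subunit of the core without cutting activity, had 24.7 CPM in water 3, against 33.4 to 35.3 CPM in the others. The same library held the highest monocyte and macrophage marker means and the lowest erythroid and proliferation marker means of the water group, and their part in these values was not tested. Without water 3, Psmb9 passed with edgeR at a log2 fold change of 0.62 (adjusted p = 0.0348).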

How the results depend on the processing

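The signs of Psmb8, Psmb9 and Psmb10 held in all 20 alternatives, and their calls did not. Psmb8 passed in 9 of 20 (log2 fold change 0.37 to 0.73, adjusted p = 0.00834 to 0.446), Psmb10 in 10 (0.49 to 0.80, adjusted p = 0.00208 to 0.309) and Psmb9 in 3 (0.21 to 0.62, adjusted p = 0.0348 to 0.715). Proteasome genes called, 2 in the report, numbered 1 with RLE scaling, 4 with DESeq2, 1 with limma voom, 7 with voom and library weights, 1 with both water 3 and α-KG 1 left out (an alternative chosen after seeing the data; Psmb8) and 0 to 7 with single libraries left out. Immunoproteasome genes called, also 2, numbered 1 with RLE scaling, 0 with library totals alone, 1 with limma voom, 1 without water 3 and α-KG 1, and 0 to 3 with single libraries left out. The same single libraries gave 0 to 2683 genes called over the whole table (413 in the report, 361 higher and 52 lower). The table gave 1159 with library totals alone (117 higher, 1042 lower), 1654 with DESeq2 (967 and 687), 267 with limma voom (225 and 42) and 2390 with library weights (1401 and 989). The causes were not tested.

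Library totals alone moved the median of all genes from 0.02 to -0.22, and that of the proteasome genes to -0.48, so that they lay 0.26 below all genes against 0.24 in the report; the 2 members called there were Psmd9 and Psmf1, both lower. The members' median stayed between -0.29 and -0.14 with single libraries left out. Differences in the log2 ratios with single libraries left out were 0.49 to 0.81 for Psmb8 to Psmb5, 0.50 to 0.76 for Psmb9 to Psmb6 and 0.71 to 1.06 for Psmb10 to Psmb7. Several values changed sign in some alternatives without a call: Psmb5 in 10, and Psma7, Psmb3, Psme1, Psme2, Pomp, Irf1, Tap2, B2m and Maff in 1 or 2. In the report these ran from 0.00 for Psmb5 to 0.22 for Pomp, whose lowest value over the alternatives was -0.05. No paired analysis was possible because sample titles share no numbers between the groups and nothing else links them. Depth limited the scarce members most: Psmg4, at 0.894 to 2.76 CPM, dropped out under a filter of 1 CPM in every library.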
